A study of Mus musculus with 8 samples.

Results

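Interferon response genes are the genes that cells switch on when interferon binds its receptors. A list of 41 of them was taken by gene symbol from the array's annotation, older synonyms allowed, and read in mouse intestine and colon with and without overexpression of Nanog, a homeobox transcription factor of pluripotent cells. Of the 41 genes, 39 had at least 1 probe and 63 probes in all, and Gbp6 and Ifi44 matched none. Of the 39, 29 were above background on both arrays of at least 1 group and entered the tests, among 8607 genes tested. RNA was hybridised to 8 Illumina bead arrays, in 4 groups of 2 biological replicates: for each tissue, samples that overexpress Nanog and control samples that do not. The labels give no strain, age, sex, promoter or duration of the Nanog overexpression, and no other allele or agent; they do not say whether the intestine and colon samples came from the same animals.

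Type I interferons are secreted when sensors in or on a cell detect viral or bacterial nucleic acid. They signal through JAK kinases to a complex that holds STAT2 and IRF9 and binds the interferon-stimulated response element (ISRE). Interferon gamma acts through the gamma-activated site (GAS). The induced genes encode sensors, enzymes and membrane proteins that block viral growth, GTPases that attack pathogen vacuoles, and the machinery that cuts and carries peptides for MHC class I. In the gut, epithelial cells and the leukocytes of the mucosa express many of these genes at a resting level, in part in response to the microbiota.

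The letters of both response elements were looked for in the promoters of the genes. RefSeq promoter windows (assembly GRCm38.p6, 250 bases before to 50 bases after the gene start) were matched by symbol for 31 of the 41 genes. Both strands were searched for the ISRE core, GAAANN followed directly by GAAA, and for the GAS core TTCNNNGAA. The ISRE core was in 16 of the 31 genes (51.6%), against 3.99% of the 27025 mouse genes with such a window, and the GAS core was in 8 of the 31 (25.8%), against 9.55%. Bst2, Ifitm3, Igtp and Oas1a held both cores. The windows of 4 genes whose values are followed below are shown in the gene's own direction, with the motif letters in capitals. Isg15 has 3 overlapping matches of the ISRE core, and Rsad2 has 1, read on the other strand, that starts at base -120 from the gene start. Irf1 and Psmb8 each have 1 GAS core, at -90 and -97, and no ISRE core in this window.
Isg15, chr4:156200769-156201068, strand -: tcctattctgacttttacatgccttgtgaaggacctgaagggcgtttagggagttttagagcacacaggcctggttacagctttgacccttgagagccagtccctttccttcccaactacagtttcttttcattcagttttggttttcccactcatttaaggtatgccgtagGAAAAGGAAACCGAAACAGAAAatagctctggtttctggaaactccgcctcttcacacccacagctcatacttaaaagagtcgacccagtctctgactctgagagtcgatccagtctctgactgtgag
Rsad2, chr12:26456403-26456702, strand -: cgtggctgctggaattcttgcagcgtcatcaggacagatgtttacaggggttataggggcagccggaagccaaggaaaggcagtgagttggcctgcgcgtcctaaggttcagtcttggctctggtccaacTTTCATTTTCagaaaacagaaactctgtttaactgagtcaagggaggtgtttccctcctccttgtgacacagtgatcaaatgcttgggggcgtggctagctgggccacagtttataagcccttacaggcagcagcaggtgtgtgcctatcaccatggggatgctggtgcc
Irf1, chr11:53769764-53770063, strand +: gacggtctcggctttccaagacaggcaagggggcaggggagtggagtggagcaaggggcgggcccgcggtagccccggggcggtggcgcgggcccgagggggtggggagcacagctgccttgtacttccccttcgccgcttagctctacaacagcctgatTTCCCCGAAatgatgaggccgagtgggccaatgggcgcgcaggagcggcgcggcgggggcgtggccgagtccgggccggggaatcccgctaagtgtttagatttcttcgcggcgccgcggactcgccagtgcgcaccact
Psmb8, chr17:34197945-34198244, strand +: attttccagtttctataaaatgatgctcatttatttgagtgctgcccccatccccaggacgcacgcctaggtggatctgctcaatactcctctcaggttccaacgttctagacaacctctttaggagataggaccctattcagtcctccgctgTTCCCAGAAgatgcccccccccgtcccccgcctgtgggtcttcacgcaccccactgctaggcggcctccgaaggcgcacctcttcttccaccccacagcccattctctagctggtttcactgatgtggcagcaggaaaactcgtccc
Of the 29 tested genes, 12 held the ISRE core and 7 the GAS core, 3 of them both, 9 held neither and 4 had no entry. With Nanog in colon 11 of the 12 ISRE genes, 5 of the 7 GAS genes and 8 of the 9 with neither had values below their controls. A match describes the letters in these windows and says nothing of which factors were bound.

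The arrays read between 10652 and 11993 of 25697 probes above background (detection p under 0.01). The single Nanog probe was above background on no array, with detection p from 0.172 to 0.817, so the overexpression itself has no reading here. The tissue labels were checked by markers: the mean log2 intensity of 5 genes of small intestine epithelium lay between 11.1 and 13.3 on the intestine arrays and between 4.83 and 5.60 on the colon arrays. Of these 5, Fabp6 was lower on both intestine replicates 2 (5.01 and 4.94) than on the colon arrays (5.58 to 6.09). Fabp1 and Fabp2, on the same list, were above background on no array of either tissue. The 6 colon epithelium genes averaged 5.71 to 7.16 in intestine and 8.73 to 10.4 in colon, although Ang4 was lower on every colon array than in intestine. The 16 genes of pancreatic acinar cells ranged from a mean of 5.25 to 14.2 and were highest on replicate 2 of both Nanog groups, 14.2 in intestine and 13.7 in colon. Although the design text speaks of cells, genes of smooth muscle averaged at least 9.97 on all arrays. Files and labels name no chip or hybridisation batch. Values below are normalized log2 intensities, given for replicate 1 and then replicate 2 of a group, and with 2 arrays per group the number of arrays limits the precision of each.

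In colon the mean of the interferon genes was lower on both arrays with Nanog than on both controls, while in intestine the arrays with and without Nanog overlapped. The mean over the 29 tested genes was 7.86 and 7.29 in the intestine controls and 8.31 and 7.56 with Nanog, and it was 7.74 and 7.63 in the colon controls and 7.13 and 6.79 with Nanog. Both colon arrays with Nanog were below every other array. These means are a description, since the genes were not tested as a list. The mean over all 8607 genes lay between 7.66 and 7.74 on every array. Quantile normalization makes that mean nearly equal between arrays, so it cannot show whether all genes shifted. In bulk RNA, fewer cells that express these genes and less RNA per cell cannot be told apart.

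**Figure D1:**
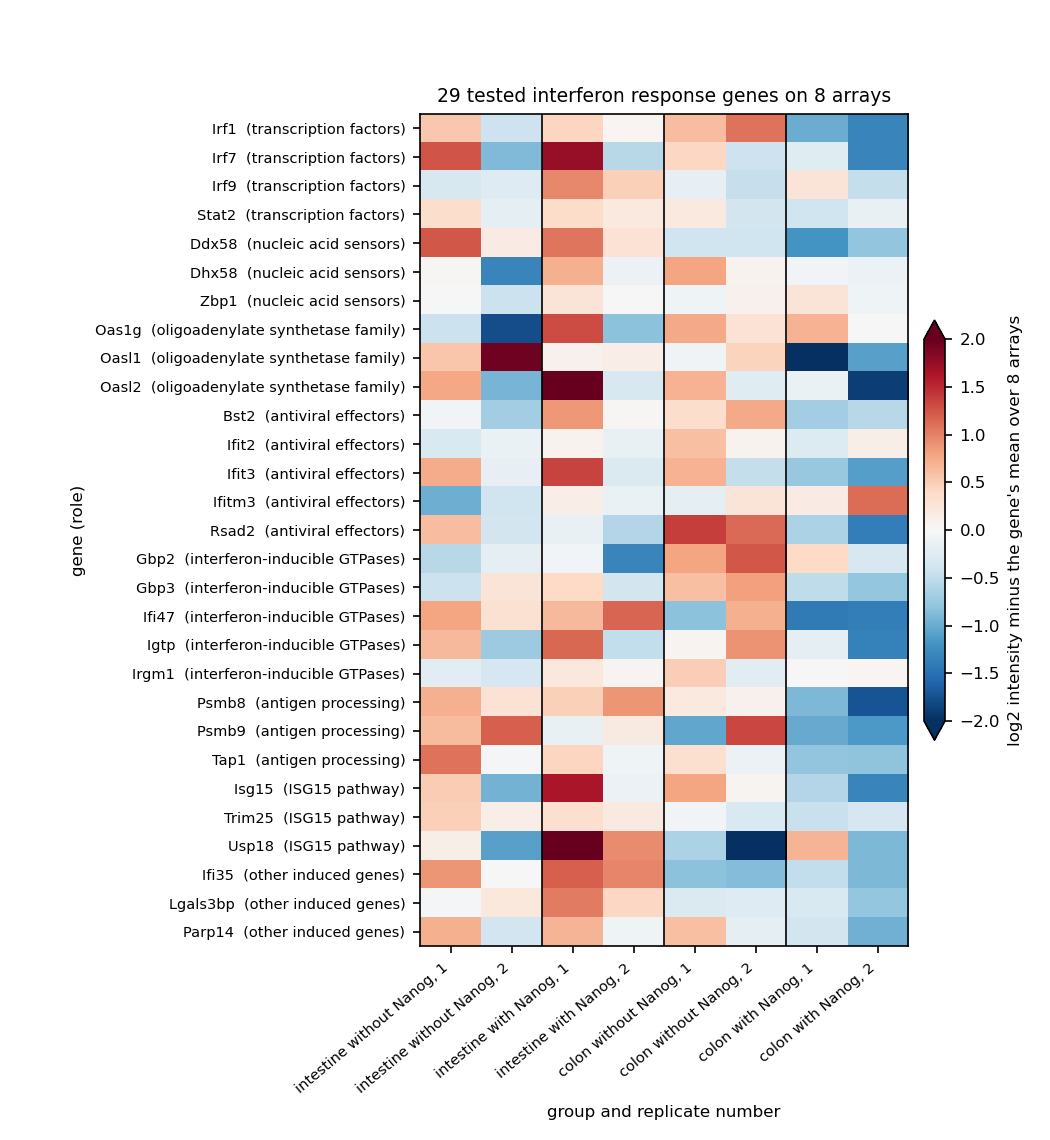
Heat map of the 29 tested interferon response genes (rows, grouped by role) on the 8 arrays (columns); colour is the log2 intensity minus the gene's mean over all arrays, red above it and blue below. Most rows are low in the columns of colon with Nanog, where the mean over genes was 7.13 and 6.79, and Usp18 is high in intestine with Nanog.

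No single interferon gene passed the test for a Nanog effect in either tissue. In intestine limma called 0 of 29 genes at an adjusted p of 0.05, where it called 0.163% of all tested genes, and 2 genes, Irf9 and Usp18, had an unadjusted p under 0.05 (8.69% of all genes). The log2 difference was above 0 for 22 genes (49.2% of all genes) and below 0 for 7, with a median of 0.33 against -0.01 over all genes. That split depended on the scaling: when arrays were scaled to a common median, all genes shifted by a median of -0.38 in this comparison, and 13 interferon genes were above 0 and 16 below. The Nanog arrays lay wholly above the controls in 7 genes (17% of all genes), namely Irf9, Bst2, Ifitm3, Irgm1, Usp18, Ifi35 and Lgals3bp, and wholly below in Oasl1 and Psmb9 (15.5% of all genes).

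In colon 0 of 29 genes were called by limma (0.221% of all genes), and 7 had an unadjusted p under 0.05, all of them lower with Nanog, where 6.89% of all genes were lower at that level. These 7 were Irf1, Rsad2, Oasl1, Bst2, Gbp3, Ifi47 and Psmb8. The log2 difference was below 0 for 24 genes (50.6% of all genes) and above 0 for 5 (Irf9, Zbp1, Ifitm3, Usp18 and Ifi35), with a median of -0.87 against -0.01 over all genes. The median was also -0.87 over the 25 genes above background on all 8 arrays, and -0.78 over the 29 with Tap1, which was not above background in colon with Nanog, at the bound given below. In 17 genes both Nanog arrays lay below both controls (26.6% of all genes), and in 0 genes above (26.3% of all genes). Without colon control replicate 1 the median was -0.47, with 22 genes below 0.

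**Figure D2:**
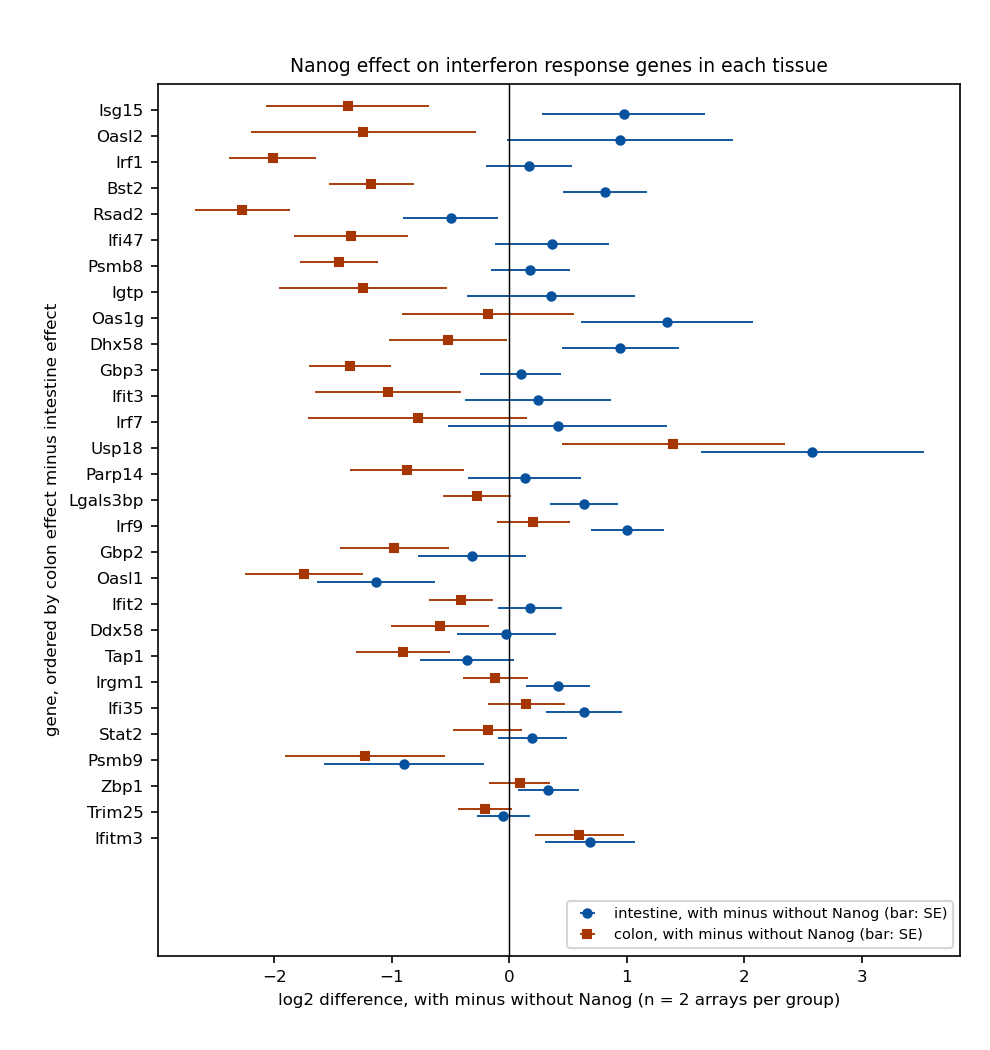
Log2 difference with Nanog minus without, for each tested interferon gene in intestine and in colon; points are limma estimates and bars are its SE, with genes ordered by the colon effect minus the intestine effect. Of the 29 colon estimates 24 are below 0, of the intestine estimates 22 are above 0, and none passed an adjusted p of 0.05.

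The effect of Nanog in colon minus that in intestine was below 0 for all 29 genes, while 50.3% of all genes were below 0. Their median was -1.001 with all genes centred near 0, and 17 genes (58.6%, against 17.2% of all genes) were above 0 in intestine and below 0 in colon. The values furthest below 0 were those of Isg15, Oasl2 and Irf1. Limma called 0 of the 29 differences, as it called 0% of all genes, while 7 genes (24.1%) had an unadjusted p under 0.05, against 4.19% of all genes. With median scaling, 25 genes were below 0 and 4 above, and the gap of all genes moved to 0.41. Averaged over the tissues, 10 genes were above 0 and 19 below (50.9% of all genes below), 0 were called (1.2% of all genes) and 8 had an unadjusted p under 0.05 (16.5% of all genes).

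Between the tissues, 4 interferon genes were called, all with Nanog present and all lower in colon. In the controls 0 of 29 genes differed between colon and intestine by limma (5.5% of all genes), 5 had an unadjusted p under 0.05 (20.8% of all genes), 15 were above 0 (58.6% of all genes), and the median log2 difference was 0.03 against 0.11 over all genes. With Nanog in both tissues, Ifi47, Psmb8, Ifi35 and Lgals3bp were lower in colon, 13.8% of the 29, where 6.65% of all genes were called and 3.46% were called lower. The median log2 difference was -1.07 against 0.10 over all genes, and 26 of 29 genes were below 0 (42.2% of all genes). Both colon arrays lay below both intestine arrays in 20 genes (23.6% of all genes) and above them in 1, Ifitm3 being at 10.88 and 11.84 in colon and 10.86 and 10.59 in intestine (35.1% of all genes). With each array left out in turn, the log2 difference ran from -2.56 to -2.05 for Ifi47 and from -2.41 to -1.58 for Psmb8. It ran from -1.98 to -1.57 for Ifi35 and from -1.57 to -0.95 for Lgals3bp. Most or all of the 4 calls were lost when an array of either Nanog group was left out. Fewer of all genes were called in those fits too, which leave a single array in a group. With median scaling 1 gene, Psmb8, was called (5.57% of all genes).

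**Figure D3:**
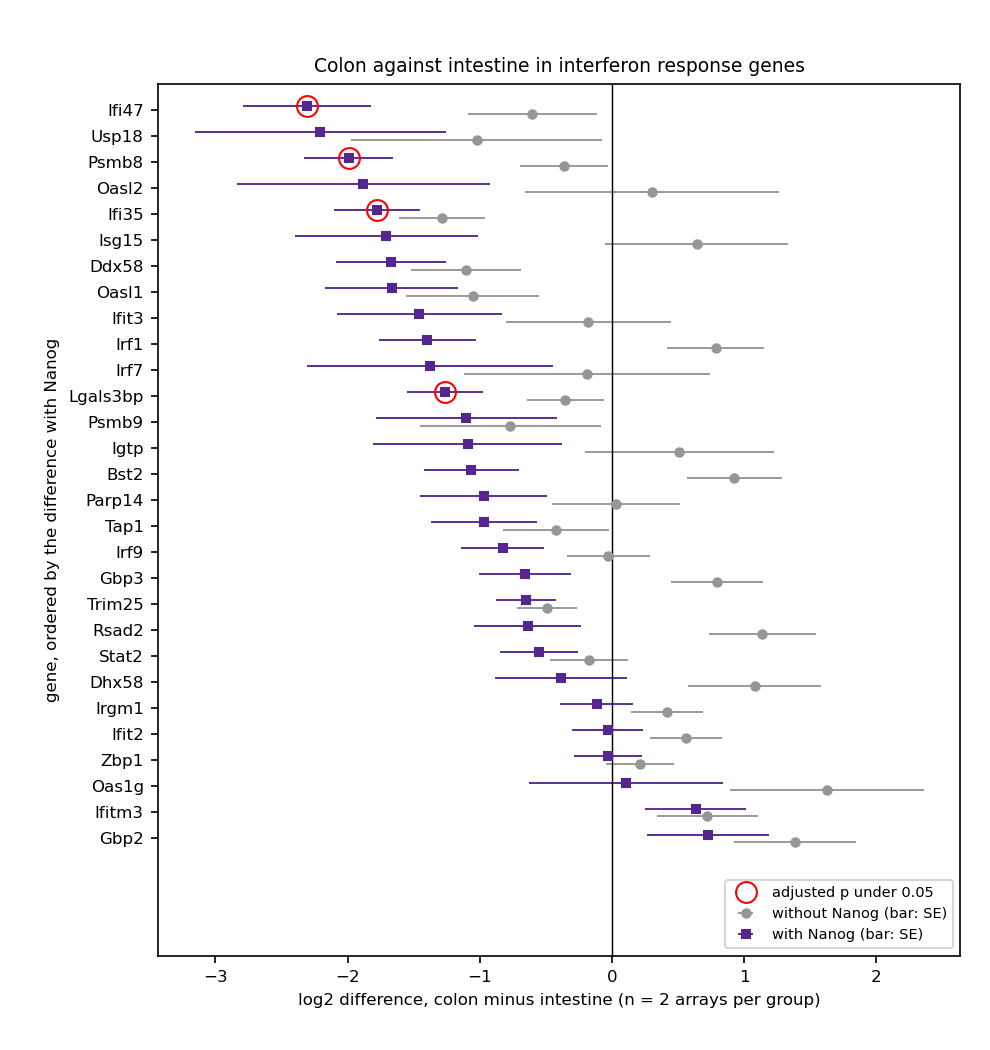
Log2 difference colon minus intestine for each tested interferon gene, without and with Nanog; points are limma estimates and bars are SEs, genes are ordered by the difference with Nanog and circles mark an adjusted p under 0.05. With Nanog 26 of 29 estimates are below 0, and Ifi47, Psmb8, Ifi35 and Lgals3bp passed an adjusted p of 0.05; without Nanog 15 are above 0 and 14 below.

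The transcription factors of the response were Stat2 and Irf9, which are part of the complex that type I interferon activates, Irf7, which amplifies interferon production, and Irf1, which drives many genes of the interferon gamma response. All 4 were tested. In intestine 4 of 4 were above their controls with a median log2 difference of 0.31, and in colon 3 of 4 were below with a median of -0.48, none of them called. Irf1 read 11.80 and 10.85 in the intestine controls, 11.69 and 11.30 in intestine with Nanog, 11.87 and 12.35 in the colon controls and 10.26 and 9.94 in colon with Nanog. Both colon arrays with Nanog were below every other array, and the intestine groups overlapped. The log2 difference in colon was -2.01 ± 0.37 (SE, adjusted p = 0.0978), against 0.17 ± 0.37 (adjusted p = 0.939) in intestine. Irf1 passed at an adjusted p of 0.0353 when the 4 colon arrays were fitted alone, and without either intestine control array, with 0.0451 as the lowest adjusted p. All 5 Irf1 probes that passed the detection filter gave lower values in colon, from -2.04 to -0.84, and higher values in intestine, from 0.17 to 0.54. The probe at -0.84 was above background on 3 arrays only. It passed the filter only through the colon controls, so its direction in colon was set largely by the filter. For the Irf1 probe used here the difference of the effects was -2.18 ± 0.52 (adjusted p = 0.882), with an interval of -3.41 to -0.95.

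In intestine Irf9 stood at 7.86 and 7.91 without Nanog and at 9.13 and 8.65 with Nanog, and in colon at 8.01 and 7.71 without and at 8.43 and 7.70 with Nanog. Both intestine arrays with Nanog were above both controls, by 1.01 ± 0.31 (SE, adjusted p = 0.392), while in colon the groups overlapped. The other Irf9 probe gave 1.00 in intestine too, but -0.32 in colon where the probe used here gave 0.20. Irf7 differed more between replicates than between groups: replicate 1 was 2.15 above replicate 2 in intestine without Nanog and 2.29 above it with Nanog. Stat2 lay between 5.56 and 6.32 on all arrays, with differences of 0.20 in intestine and -0.18 in colon.

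Of 4 cytosolic nucleic acid sensors, Ddx58 (RIG-I), Dhx58 (LGP2, a relative that lacks the signalling domains) and Zbp1, a sensor of Z-form nucleic acid, were tested. Ifih1 (MDA5) was above background on 2 arrays only, the first arrays of intestine with Nanog and of colon without Nanog. For Ddx58 the intestine arrays gave 7.48 and 6.40 without and 7.30 and 6.52 with Nanog, and the colon arrays 5.83 and 5.84 without and 5.04 and 5.44 with Nanog. Its intestine values were higher than its colon values in every pairing, with a log2 difference of colon minus intestine of -1.10 ± 0.42 (SE, adjusted p = 0.193) without Nanog and -1.67 ± 0.42 (adjusted p = 0.0645) with Nanog. Ddx58 was above background on 7 arrays. The log2 intensities of Dhx58 were 5.89 and 4.55 in intestine without Nanog and 6.58 and 5.75 with it, and 6.65 and 5.94 in colon without Nanog and 5.81 and 5.75 with it. Replicate 2 of the intestine controls of Dhx58 was not above background, so the measured Nanog effect of 0.95 ± 0.50 (adjusted p = 0.666) in intestine is set in part against a dim array, and it was -0.52 ± 0.50 (adjusted p = 0.726) in colon. Zbp1 stayed between 5.19 and 5.89.

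The active enzymes of the oligoadenylate synthetase family sense double-stranded RNA and make the messenger that activates RNase L. Of the 6 listed, Oas1a was above background on no array, Oas2 and Oas3 on 2 and 1, and Oas1g, Oasl1 and Oasl2 were tested. The mouse Oas1 genes are close copies of each other, and whether the Oas1g probes also read other copies was not checked. The 3 had log2 differences of 1.34, -1.13 and 0.94 in intestine and of -0.18, -1.75 and -1.24 in colon, with no call. Oasl1, which in mouse restrains translation of Irf7 mRNA, stood below its controls in both tissues. Oasl1 read 8.13 and 9.52 in the intestine controls, 7.67 and 7.71 in intestine with Nanog, 7.51 and 8.03 in the colon controls and 5.55 and 6.50 in colon with Nanog. Its Nanog arrays were wholly below the controls in intestine and in colon, a pattern shared by 6.96% of all genes. The differences were -1.13 ± 0.50 (SE, adjusted p = 0.592) in intestine, -1.75 ± 0.50 (adjusted p = 0.243) in colon and -1.44 ± 0.36 (adjusted p = 0.123) on average. Its second probe gave -0.15 in intestine and -1.40 in colon.

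In intestine Oasl2 stood at 9.63 and 7.93 without Nanog and at 10.92 and 8.54 with Nanog, and in colon at 9.56 and 8.62 without and at 8.72 and 6.97 with Nanog. For Oas1g the intestine arrays gave 8.98 and 7.64 without and 10.72 and 8.59 with Nanog, and the colon arrays 10.18 and 9.70 without and 10.11 and 9.41 with Nanog. In both genes, by the probe used here, replicate 1 was above replicate 2 in all 4 groups. The gap reached 2.38 in Oasl2 and 2.13 in Oas1g, and the Nanog and control arrays of a tissue overlapped. A second Oas1g probe, above background on all 8 arrays, differed by 1.83 in intestine and 0.08 in colon, where the probe used gave -0.18. Its intestine groups did not overlap, at 6.82 and 6.23 without and 9.29 and 7.41 with Nanog. The difference of Nanog effects was -2.18 ± 1.36 (SE, adjusted p = 0.998) for Oasl2, with an interval of -5.39 to 1.02.

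The antiviral effectors act on viruses directly: Rsad2 (viperin) makes a chain-terminating nucleotide, Bst2 (tetherin) holds budding virus at the cell surface, Ifitm3 blocks entry by membrane fusion and the Ifit proteins bind viral RNA. Of 8 listed, 5 were tested, while Ifit1 and Mx1 were above background on no array and Mx2 on 2, both of them intestine replicates 1. In intestine 4 of 5 were above their controls and in colon 4 of 5 were below, with medians of 0.25 and -1.03 and no call. The log2 intensities of Rsad2 were 7.69 and 6.71 in intestine without Nanog and 6.93 and 6.49 with it, and 8.47 and 8.21 in colon without Nanog and 6.45 and 5.69 with it. Rsad2 was highest in the colon controls and lowest in colon with Nanog, and the intestine groups overlapped. Its difference was -2.27 ± 0.40 (SE, adjusted p = 0.0978) in colon, -0.50 ± 0.40 (adjusted p = 0.79) in intestine and -1.38 ± 0.29 (adjusted p = 0.0822) on average. With the 4 colon arrays fitted alone the adjusted p in colon was 0.0403.

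Bst2 read 6.31 and 5.68 in the intestine controls, 7.23 and 6.39 in intestine with Nanog, 6.71 and 7.13 in the colon controls and 5.68 and 5.81 in colon with Nanog. The Bst2 arrays with Nanog were wholly above the controls in intestine and wholly below them in colon. The differences were 0.82 ± 0.36 (SE, adjusted p = 0.587) and -1.17 ± 0.36 (adjusted p = 0.268), and the difference between them was -1.99 ± 0.51 (adjusted p = 0.998). In intestine Ifitm3 stood at 9.75 and 10.33 without Nanog and at 10.86 and 10.59 with Nanog, and in colon at 10.55 and 10.98 without and at 10.88 and 11.84 with Nanog. Ifitm3 was 1 of the 5 genes above 0 in colon, by 0.60 ± 0.38 (SE, adjusted p = 0.567). Ifit2 and Ifit3 had colon differences of -0.41 and -1.03 and intestine differences of 0.18 and 0.25, and only for Ifit3 did the colon groups not overlap.

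**Figure D4:**
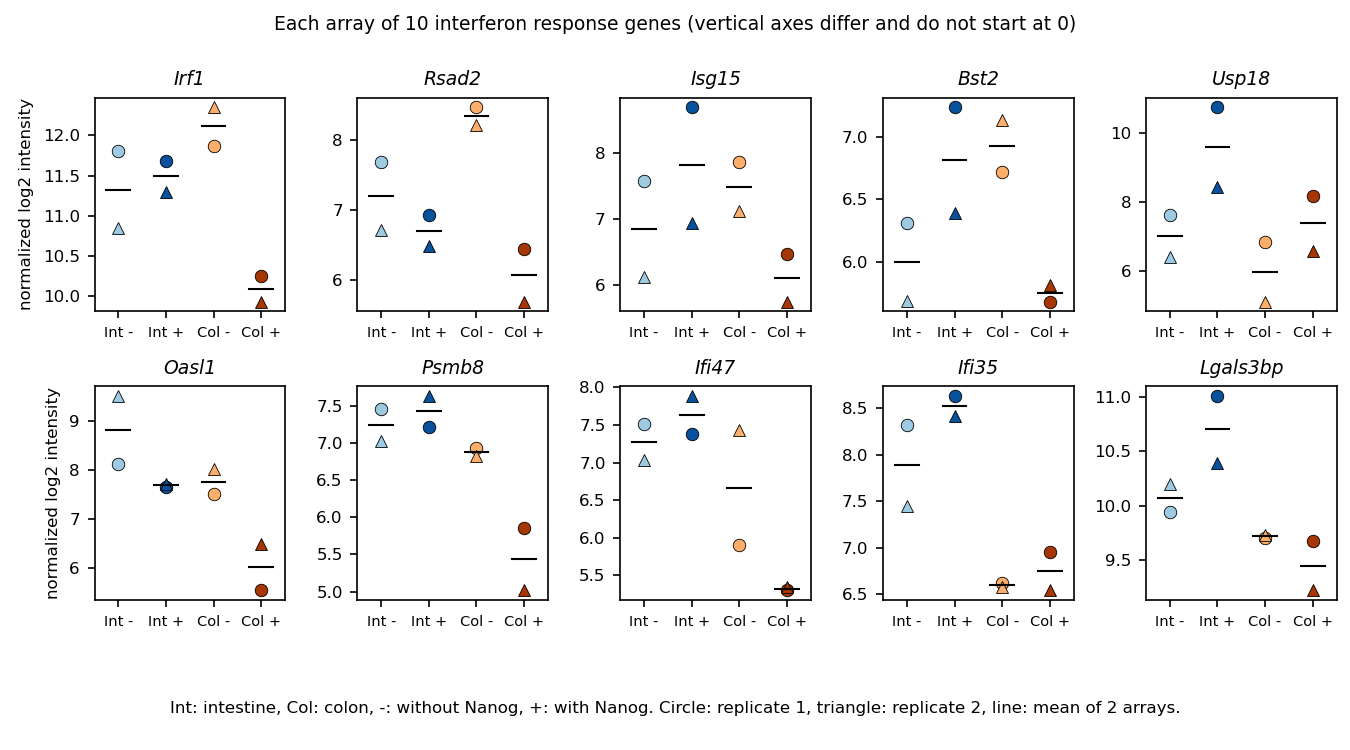
Normalized log2 intensity of 10 interferon genes on each array, by group; points are arrays and short lines are group means of 2. Irf1, Rsad2 and Isg15 have their lowest group means in colon with Nanog, Bst2 is higher with Nanog in intestine and lower in colon, and Usp18 shows replicates that differ by up to 2.30 within a group.

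The interferon-inducible GTPases, guanylate-binding proteins and immunity-related GTPases, gather on the vacuoles of intracellular pathogens. Of 7 listed, Gbp6 had no probe, Iigp1 was above background on no array and 5 were tested. In colon 5 of 5 were below their controls with a median of -1.24, and in intestine 4 of 5 were above with a median of 0.36, none called. For Gbp3 the intestine arrays gave 6.74 and 7.42 without and 7.57 and 6.79 with Nanog, and the colon arrays 7.77 and 7.99 without and 6.66 and 6.39 with Nanog. The colon groups of Gbp3 did not overlap, with a difference of -1.35 ± 0.35 (SE, adjusted p = 0.211), while in intestine it was 0.10. The second Gbp3 probe gave -1.23 in colon and, with the opposite sign, -0.05 in intestine. The log2 intensities of Ifi47 were 7.51 and 7.03 in intestine without Nanog and 7.38 and 7.89 with it, and 5.91 and 7.43 in colon without Nanog and 5.30 and 5.35 with it. Ifi47 was lowest in colon with Nanog, where both arrays were below all others, and the colon controls differed from each other by 1.52. It was called for colon against intestine with Nanog, -2.31 ± 0.48 (SE, adjusted p = 0.0369), but not without Nanog, -0.60 ± 0.48 (adjusted p = 0.542). Its difference of Nanog effects was -1.71 ± 0.69 (adjusted p = 0.998), so the comparisons with and without Nanog were not shown to differ.

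Irgm1 read 11.13 and 11.03 in the intestine controls, 11.57 and 11.41 in intestine with Nanog, 11.85 and 11.14 in the colon controls and 11.36 and 11.39 in colon with Nanog. Irgm1, a regulator of autophagy and of the other family members, varied by less than 1 unit over the 8 arrays by the probe used here, with intervals of -0.23 to 1.06 for the Nanog effect in intestine and -0.77 to 0.53 in colon. A second probe, also above background on all 8 arrays, ran from 5.41 to 7.98 and differed by 1.09 in intestine and -0.24 in colon, and its intestine groups overlapped. With median scaling the intestine value of the probe used turned from 0.41 to -0.0275. Gbp2 and Igtp had colon differences of -0.98 and -1.24, with the Nanog arrays wholly below the controls in both genes.

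For antigen processing, Psmb8 and Psmb9 encode subunits of the immunoproteasome, which cuts peptides for MHC class I, and Tap1 a chain of the transporter that carries them into the endoplasmic reticulum. The 3 genes lie side by side in the MHC. In colon 3 of 3 were below their controls, Psmb8 by -1.45 and Psmb9 by -1.23, with no call, while Tap1 has only a bound. In intestine Psmb8 stood at 7.46 and 7.03 without Nanog and at 7.22 and 7.63 with Nanog, and in colon at 6.94 and 6.83 without and at 5.85 and 5.02 with Nanog. Both colon arrays with Nanog were below every other array, and the other groups lay close together. The colon difference was -1.45 ± 0.34 (SE, adjusted p = 0.173) and the intestine difference 0.18 ± 0.34 (adjusted p = 0.922). Colon was called lower than intestine with Nanog, with a log2 difference of -1.99 ± 0.34 (adjusted p = 0.019), while the control tissues differed by -0.36 ± 0.34 (adjusted p = 0.601). The difference of Nanog effects was -1.63 ± 0.47 (adjusted p = 0.998), so these comparisons were not shown to differ. Psmb8 was above background on 7 of the 8 arrays, missing on 1 array of colon with Nanog.

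For Psmb9 the intestine arrays gave 7.46 and 8.03 without and 6.68 and 7.02 with Nanog, and the colon arrays 5.79 and 8.16 without and 5.82 and 5.68 with Nanog. The colon controls of Psmb9 differed by 2.37, and only its intestine groups did not overlap, with a difference of -0.90 ± 0.68 (SE, adjusted p = 0.773). Tap1 was not well above background on either colon array with Nanog and was at least 1.19-fold lower there than in the colon controls (adjusted p = 0.412) and at least 1.24-fold lower than in intestine with Nanog (adjusted p = 0.218). For the bound, both arrays of colon with Nanog were set at their own reading or at the faintest signal called above background on that array, whichever was larger, and the other group was kept at its measured mean. Replicate 2 of intestine with Nanog was not above background for Tap1 either and entered that mean as measured. The measured means of Tap1 were 5.30 in the colon controls, 5.36 in intestine with Nanog and 4.39 in colon with Nanog.

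Isg15 is a ubiquitin-like modifier that interferon induces, Usp18 removes it from proteins and also damps the type I receptor, and Trim25 is a ubiquitin ligase that activates RIG-I. The log2 intensities of Isg15 were 7.58 and 6.12 in intestine without Nanog and 8.70 and 6.95 with it, and 7.86 and 7.12 in colon without Nanog and 6.48 and 5.76 with it. In colon both Nanog arrays were below both controls, in intestine the groups overlapped, and replicate 1 was above replicate 2 in every group. The differences were 0.97 ± 0.69 (SE, adjusted p = 0.759) in intestine and -1.37 ± 0.69 (adjusted p = 0.482) in colon. Their difference was -2.35 ± 0.98 (adjusted p = 0.998), the largest of the 29 genes. Usp18 read 7.61 and 6.40 in the intestine controls, 10.73 and 8.43 in intestine with Nanog, 6.84 and 5.12 in the colon controls and 8.16 and 6.59 in colon with Nanog. Usp18 was the gene with the highest Nanog effect in both tissues, 2.58 ± 0.95 (SE, adjusted p = 0.491) in intestine, where the groups did not overlap, and 1.40 ± 0.95 (adjusted p = 0.601) in colon, where they did. Its replicates differed by 1.21 to 2.30 in the 4 groups, and its 3 probes ran from 2.01 to 2.66 in intestine and from 0.83 to 1.40 in colon. The probe at 2.01 and 0.83 was above background on 3 arrays only. It passed the filter only through intestine with Nanog, so its direction in intestine was set largely by the filter. Trim25 lay between 5.91 and 6.84 and differed by -0.05 in intestine and -0.21 in colon.

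Of the 6 other induced genes, Xaf1, a partner of an apoptosis inhibitor, was above background on no array, Rtp4 on 1 and Ifi44 had no probe. Ifi35, a leucine zipper protein, Parp14, an ADP-ribosyltransferase, and Lgals3bp, a secreted galectin-binding glycoprotein, were tested, and 3 of 3 were above their controls in intestine. In intestine Ifi35 stood at 8.32 and 7.45 without Nanog and at 8.63 and 8.41 with Nanog, and in colon at 6.62 and 6.58 without and at 6.95 and 6.54 with Nanog. Every intestine array was above every colon array, and the called difference of colon minus intestine with Nanog was -1.78 ± 0.33 (SE, adjusted p = 0.0245), with -1.29 ± 0.33 (adjusted p = 0.0731) in the controls. For Lgals3bp the intestine arrays gave 9.94 and 10.20 without and 11.01 and 10.40 with Nanog, and the colon arrays 9.70 and 9.73 without and 9.67 and 9.22 with Nanog. Lgals3bp was wholly above its controls in intestine, with a difference of 0.64 ± 0.29 (SE, adjusted p = 0.603), and wholly below them in colon, with -0.27 ± 0.29 (adjusted p = 0.765), a pattern it shared with Bst2 (6.9% of the 29 genes, against 1.56% of all genes). Colon was called lower than intestine with Nanog, at -1.26 ± 0.29 (adjusted p = 0.0492), a call close to the threshold, which the authors' deposited values put at an adjusted p of 0.0704. The log2 intensities of Parp14 were 9.52 and 8.42 in intestine without Nanog and 9.48 and 8.72 with it, and 9.40 and 8.60 in colon without Nanog and 8.43 and 7.83 with it. Its colon groups did not overlap, with a difference of -0.87 ± 0.48 (adjusted p = 0.525), and its intestine groups did.

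The interferon genes also varied between arrays of the same group, in a shared direction. Replicate 1 was above replicate 2 in 21 of 29 genes in the intestine controls, 25 in intestine with Nanog, 17 in the colon controls and 20 in colon with Nanog, where 53%, 57%, 51.9% and 55.5% of all genes were. Replicate 1 was the higher array in all 4 groups for 11 genes (37.9%, against 13.7% of all genes): Irf7, Dhx58, Oas1g, Oasl2, Ifit3, Rsad2, Tap1, Isg15, Usp18, Ifi35 and Parp14. In 6 genes, Irf7, Oas1g, Oasl2, Igtp, Isg15 and Usp18, it was over 1 unit higher in both intestine groups. The median absolute difference between replicates was 0.87 over the 29 genes against 0.41 over all genes in the intestine controls, 0.51 against 0.33 with Nanog there, 0.48 against 0.29 in colon without and 0.41 against 0.20 in colon with Nanog. Genes with the widest spread, such as Usp18, Oasl2 and Irf7, had SEs above 0.9 for a Nanog effect. Other lists also differed by replicate number. The pancreatic acinar mean was higher on replicate 2 in all 4 groups, for example 5.67 and 10.3 in the intestine controls. The small intestine epithelium mean was higher on replicate 1 in both intestine groups, 12.7 and 11.1 without Nanog and 13.3 and 11.1 with it. A link to the interferon values was not tested.

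Other genes of the pathway were read from lists of ligands, receptors, signalling and upstream sensing. None of the 9 interferon genes on the array entered the tests, and Ifna1, Ifna2, Ifna4, Ifnab, Ifnb1, Ifng and Ifnk were above background on no array. Of 5 tested receptor chains, 4 were above their controls in intestine (median 0.44) and 3 in colon (median 0.03), with no call. Ifngr1, a chain of the interferon gamma receptor, was higher in colon than in intestine without Nanog, by 1.06 ± 0.23 (SE, adjusted p = 0.0461). Ifnar2, a chain of the type I receptor, was not above background in the intestine controls and had a Nanog effect of 0.03 ± 0.26 (adjusted p = 0.981) in colon. Ifnar2 entered the tests only through intestine with Nanog, so its place among the 4 chains higher there was set largely by the filter. The 7 tested genes of JAK-STAT signalling and its inhibitors had medians of -0.17 in intestine and -0.04 in colon, and the 7 of upstream sensing, with Tlr7 at its bound in intestine, 0.11 and -0.08, with no call in either tissue. Of 8 tested genes of MHC class I and its peptide supply, 5 were above their controls in intestine (median 0.10) and 8 of 8 were below in colon (median -0.32), and with Nanog 8 of 8 were lower in colon than in intestine (median -0.74), again with no call.

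Markers of leukocytes, which express many interferon genes, also stood lower with Nanog in colon. Their part in the interferon values was not tested. In colon with Nanog 5 of 5 leukocyte genes were below their controls (median -0.84), with array means of 10.1 and 8.97 without and 7.95 and 8.62 with Nanog. All 5 tested T and cytotoxic cell genes were below too. Of these, 5 were above background on both colon control arrays, while with Nanog 4 (Cd3e, Cd3g, Cd3d and Cd2) were above background on neither array and Ccl5 on 1, so the size of their difference is not given. Cd2 entered the tests only through the colon controls, so its direction in colon was set largely by the filter. Of the T cell list, Cd8a, Gzma and Gzmb were above background on no array. The 5 B and plasma cell genes had a median of -2.18 with Cd79a, not above background in colon with Nanog, at its bound. Mzb1, which helps plasma cells fold antibodies and was above background on all 8 arrays, was called at -3.54 ± 0.36 (SE, adjusted p = 0.0212). Macrophage and dendritic cell genes were above their controls in 5 of 6 cases in each tissue, with medians of 0.62 in intestine and, with Siglech and Bst1 at their bounds, 0.13 in colon.

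Between the tissues with Nanog, 4 of 5 T cell genes were called lower in colon, where they were not above background on at least 1 array. Ccl5, a chemokine of cytotoxic cells, was called lower in colon without Nanog as well, by -2.52 ± 0.42 (SE, adjusted p = 0.0185). In intestine the leukocyte means were 9.14 and 8.21 without and 8.46 and 8.45 with Nanog. There the B and plasma cell genes were below their controls in 5 of 5 cases, with a median of -0.99. With Nanog 3 of these 5 were above background on 1 intestine array only. The T and cytotoxic cell genes were above their controls in intestine in 4 of 5 cases (median 0.41), and no gene of either list was called there. Epithelial genes had medians of -0.49 in intestine and -0.55 in colon. Fibroblast and matrix genes were above their controls in 7 of 7 cases in intestine (median 0.98) and 6 of 7 in colon (median 1.53). Of these 6, Col1a2 entered the tests only through colon with Nanog, so its direction in colon was set largely by the filter. The pancreatic acinar genes were above their controls in 16 of 16 cases in both tissues, none of them called. In each intestine group 11 of the 16 were above background on 1 array only. In the colon controls 8 were so on 1 array and 3 on neither. Many of the 16 entered the tests only through colon with Nanog, where they are high, so the filter largely set the colon count. With the second array of each Nanog group left out, the ones where those genes were highest, the interferon median in colon was -0.61 with 23 of 29 genes below 0, the difference of effects was below 0 for all 29 genes with a median of -1.09, and 0 interferon genes were called between the tissues with Nanog.

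**Figure D5:**
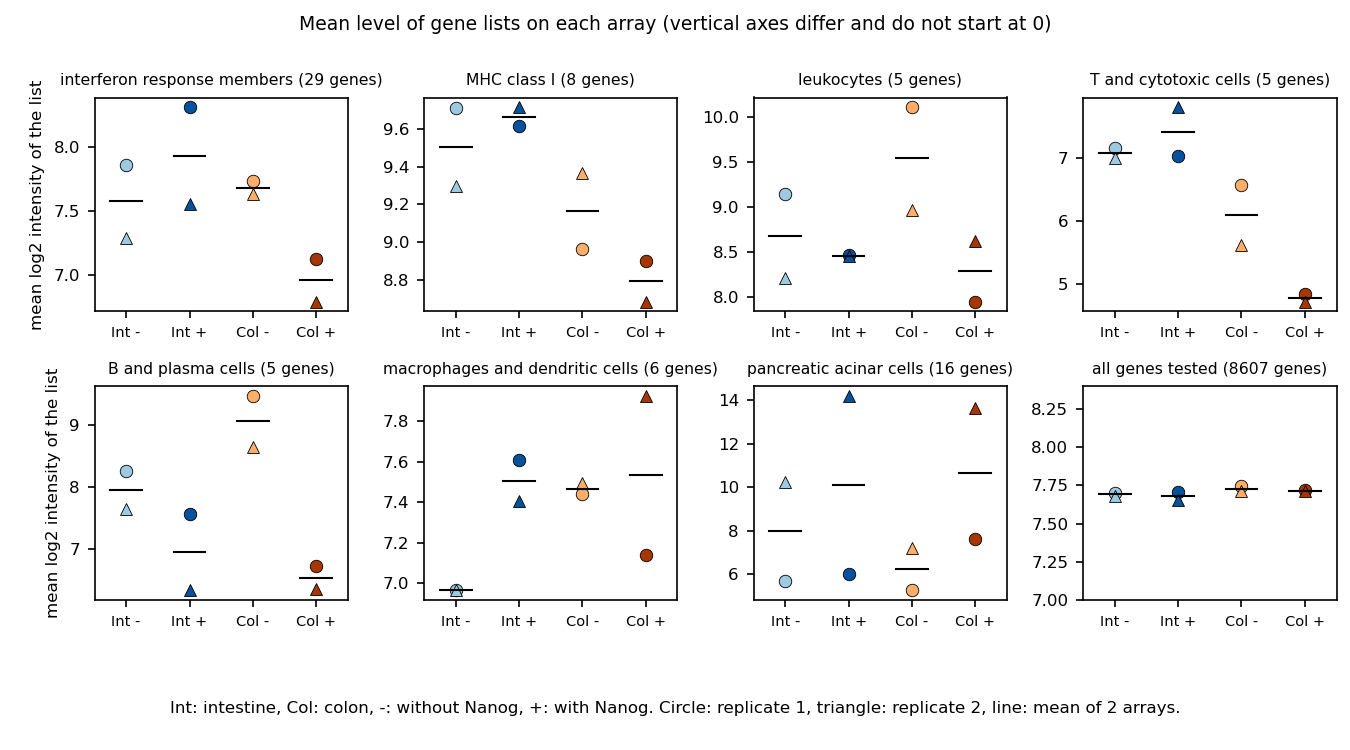
Mean log2 intensity per array of the interferon response genes and of marker lists, by group; points are arrays and each mean is over the tested genes of its list. The interferon and leukocyte means are lower in colon with Nanog than in colon without. Readings not above background enter the T and B cell means as measured, and the pancreatic acinar mean is 14.2 and 13.7 on replicate 2 of both Nanog groups.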

How the data were processed

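Total RNA was labelled with biotin and hybridised, 1 sample per array, per the labels' protocols. BeadStudio 3.2, RMA and lumi were used per the submitters' processing notes, and their order and settings are not given in the sources used here. For each probe the deposited table holds the bead signal as a linear intensity with no background subtraction or scaling, and beside it a detection p-value in steps of 1 in 798, per the file headers and values. The authors also deposited log2 values with the same quantiles on every array, used here as an alternative.

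Intensities were corrected with limma 3.58.1 (R 4.3.3) by normexp with an offset of 16 and negative controls taken from the detection p-values, taken to log2 and quantile-normalized. A probe was kept at a detection p under 0.01 on both arrays of any group (12064 probes); 1719 of 25697 probes have no symbol. The brightest kept probe stood for each of 8607 genes. All 8 arrays entered 1 linear model of the group means (4 residual and 3.07 prior degrees of freedom), with limma's moderated test and Benjamini-Hochberg adjustment over all 8607 genes at 0.05. Log2 differences carry the SE of this fit, and intervals are at 95%. The fit was tested on simulated data.

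The 41 genes, the other lists and the tests were chosen with earlier results of these data known, so no list was tested as a whole. Given with every array are genes called in any comparison and, in each role group, those with the smallest p for the Nanog effect in intestine, in colon or in their difference, and the brightest. The alternatives were the authors' log2 values, median scaling, no background correction, an offset of 50, no detection filter, a filter for detection on all 8 arrays, averaging a gene's probes, blocking on the replicate number, array weights, robust estimation with a variance trend, only the 4 arrays compared, and each array left out. A fit without replicate 2 of both Nanog groups was added after the data were seen. The deviations of arrays of the same replicate number correlated across groups with r from 0.113 to 0.468 over genes, but the labels do not say that a number marks a shared animal or day. Promoter letters come from RefSeq (GRCm38.p6).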

Additional observations from a re-analysis of the deposited data

Results flagged for a closer look

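Bst2 and Lgals3bp were the genes whose Nanog arrays all moved one way in intestine and all the other way in colon. Bst2 was higher with Nanog in 2 of 2 arrays in intestine and lower in 2 of 2 in colon, with a difference of effects of -1.99 log2 units. Lgals3bp did the same with a difference of -0.91. The difference itself had an adjusted p of 0.998 in limma's test for both genes, so neither was shown to differ between tissues. The pattern was present in 6.9% of the interferon genes and 1.56% of all genes tested. Groups of 2 arrays are too small for a check of single outlying arrays.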

How the results depend on the processing

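No interferon gene was called for the Nanog effect in intestine or for the difference of effects under any setting run. The median log2 difference in colon was -0.37 without background correction, -0.51 with an offset of 50 and -0.40 with no detection filter, and ran from -1.11 to -0.47 with single arrays left out. The median difference of effects was -0.50 with median scaling and -0.61 with no filter, and ran from -1.38 to -0.50. In intestine the median was -0.0364 with median scaling, under which Irgm1 turned to -0.0275, and ran from 0.07 to 0.56. On average of the tissues the median ran from -0.56 to 0.0137. For colon against intestine with Nanog it was -0.68 without background correction and -0.65 with no filter, and ran from -1.35 to -0.59, and without Nanog it ran from -0.22 to 0.44. The cause was not tested.

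In colon 2 genes, Irf1 and Rsad2, were called with array weights (1.94% of all genes) and with only the 4 colon arrays (1.49%), against 0 (0.221%) as reported, and 0 to 1 with single arrays left out (Irf1 without either intestine control). On average 0 to 1 were called with single arrays left out, Oasl1 without intestine control replicate 1 and Rsad2 without replicate 2. Colon against intestine without Nanog gave 0 to 2. With Nanog it gave 1 gene with median scaling, 1 with no filter (where 16593 genes were tested), 0 without replicate 2 of both Nanog groups, and 0 to 7 with single arrays left out, with 1.53% to 10.6% of all genes called. With the replicate number as a block, 2 genes were called on average (Rsad2 lower, Usp18 higher; 1.53% of all genes), 1 in colon against intestine without Nanog (Oas1g; 6.85%) and 9 with Nanog (8.39%); the samples share only a number, of which there are 2.

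Signal over background limits the dim genes: 10 genes with a probe were not tested, and 4 of the 29 missed background on some array. With 2 arrays per group, the SE of a Nanog effect ran from 0.23 for Trim25 to 0.96 for Oasl2.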

Other observations

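The genes left out of the tests for low signal were not all dark on the same arrays. Oas2 and Ifih1 were above background on the first arrays of intestine with Nanog and of colon without Nanog, Oas3 on replicate 1 of intestine with Nanog, Mx2 on replicate 1 of both intestine groups and Rtp4 on replicate 1 of colon without Nanog. The bead signal of Oas2, an oligoadenylate synthetase, was 173 on replicate 1 of intestine with Nanog and between 83.3 and 116 on the other 7 arrays. Mx2, a dynamin-like antiviral GTPase, read 132 and 133 on the intestine replicates 1 and between 80.8 and 101 elsewhere. Every such reading was thus on a replicate 1, the array that was also the higher one in all 4 groups for 11 of the 29 tested genes.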
